A study of Mus musculus with 2 samples.

Results

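The genes described here are 35 genes of glycolysis and of the response to low oxygen, chosen by symbol, and all 35 were found among the 32285 genes of the matrices. They were followed by single-cell RNA-seq in cells of a healing defect made surgically in the frontal bone of the mouse skull (the calvaria). Across cell types several abundant glycolytic enzymes followed the summed level of the pathway's enzymes, of which they are part. The glucose and lactate transporters and the hypoxia genes were highest in different classes. Between conditions most members were close, and Pfkfb3, Slc2a1 and, at the limit, Hif1a were lower by over 0.5 log2 in the treated mesenchymal lineage as a whole. Pfkfb3 was also lower by over 0.5 log2 in macrophages or monocytes, but by less once their make-up was held the same. The summed enzymes were higher in treated neutrophils and hematopoietic progenitors, with log2 ratios of 0.29 and 0.33. They were lower in treated endothelial cells (-0.19) and close in the mesenchymal lineage and in macrophages or monocytes as a whole. One library came from mice given gambogic amide (GA), a small molecule that activates the nerve growth factor receptor TrkA, and 1 library came from control mice given the vehicle. All mice were C57BL/6 males of 2 months, 5 mice were pooled in each library, and tissue was taken 7 days after injury. Per the labels, 100 µL of vehicle (10% DMSO) or of GA at 1.2 mg/kg in the same vehicle was injected intraperitoneally each day from 24 h before injury. The study's methods give a higher dose of GA. With 1 library per condition there is no replicate, so no test between conditions was possible. Each interval below is a 95% interval, Poisson for a level and conditional binomial for a ratio, that covers counting error only.

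The GA library held 182949385 UMIs (unique molecular identifiers, 1 per captured RNA molecule) in 9322 barcodes, and the control library held 214993030 UMIs in 8718 barcodes. After filtering, 8376 GA cells and 7555 control cells remained, with medians of 10929.5 and 16336 UMIs. Their median shares of mitochondrial UMIs were 1.07% and 2.82%, and the part of this difference in the ratios below was not tested. Only 23 barcodes were present in both libraries. Clusters were named from marker genes, and a name below means a cluster resembling that cell type. Neutrophils numbered 4417 GA and 2083 control cells, macrophages or monocytes 1309 GA and 1781 control cells, and the mesenchymal lineage, which includes osteoblasts, 869 GA and 1751 control cells. None of the 35 genes took part in the clustering. A level is given as CPM, the gene's UMIs per 1000000 UMIs of a class in a library, and a log2 ratio compares the level in GA with that in control. Fewer transcripts of a gene per cell and more of all others cannot be told apart on this scale. Counts of members are of ratios beyond 0.5 log2 in 1 direction, for genes with at least 200 UMIs over both libraries.

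Glycolysis turns glucose into pyruvate in the cytosol and makes ATP without oxygen. Glucose enters through the transporters Slc2a1 and Slc2a3, is trapped by the hexokinases Hk1 and Hk2, and passes through phosphofructokinase, whose activity is set by the products of Pfkfb3 and Pfkfb4. Pyruvate is reduced to lactate by Ldha and exported by Slc16a3, or is oxidised in the mitochondria, a step that Pdk1 restrains. When oxygen is low, the hydroxylases Egln1 and Egln3 no longer mark Hif1a for destruction, and Hif1a then drives many of these genes together with Bnip3, P4ha1 and Ankrd37. Injured bone is poorly perfused at first, and neutrophils are known to rely on glycolysis. Because Hif1a is controlled mainly through its protein, its transcript level is not a measure of its activity.

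The promoters of several members are shown because Hif1a is known to bind short letter runs that can be seen in them. RefSeq windows from 250 bases before to 50 bases after the transcription start were matched by symbol for 32 of the 35 members, Ero1l under its newer symbol Ero1a. The windows were searched on both strands for ACGTG and GCGTG, the core letters of the hypoxia response element, of which ACGTG is also part of the E-box CACGTG. At least 1 match was found in 39 of the 47 windows of members (83.0%) and in 43.8% of all 32851 windows of the same length. The windows of members were also richer in CG dinucleotides, with a median of 21 against 7, and the part of this in the difference was not tested. A match is a run of letters, not a binding site. Of the 5 windows printed below (build GRCm38.p6, 5′ to 3′ on the gene's strand), with matches on either strand in capitals, that of Slc2a1 lies at chr4:119108495-119108794 (+ strand) and that of Pfkfb3 at chr2:11553880-11554179 (- strand). The window of Hif1a itself is chr12:73907617-73907916 (+ strand), that of Bnip3 chr7:138909457-138909756 (- strand) and that of Slc16a3 chr11:120948817-120949116 (+ strand). The transcription starts of the Hif1a and Slc16a3 windows lie 6492 and 587 bases from the gene starts printed further below, inside those genes. Pfkfb3 had 2 windows with at most 4 matches in a window, and the printed one holds 1. The printed windows belong to genes whose values recur below: Slc2a1, Pfkfb3 and Hif1a in the mesenchymal lineage, Bnip3 in macrophages and Slc16a3 in neutrophils.
Slc2a1: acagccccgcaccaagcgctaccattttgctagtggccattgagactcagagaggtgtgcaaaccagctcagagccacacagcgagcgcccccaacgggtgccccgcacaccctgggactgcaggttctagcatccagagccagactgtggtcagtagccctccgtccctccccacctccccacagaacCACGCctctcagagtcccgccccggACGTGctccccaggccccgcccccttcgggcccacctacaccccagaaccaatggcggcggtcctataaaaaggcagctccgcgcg
Pfkfb3: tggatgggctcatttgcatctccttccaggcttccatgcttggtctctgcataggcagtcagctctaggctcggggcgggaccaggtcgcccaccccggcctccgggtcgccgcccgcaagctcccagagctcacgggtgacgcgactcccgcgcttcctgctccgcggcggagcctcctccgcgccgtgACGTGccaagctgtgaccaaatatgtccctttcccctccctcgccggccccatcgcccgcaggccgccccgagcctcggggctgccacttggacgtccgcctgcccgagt
Hif1a: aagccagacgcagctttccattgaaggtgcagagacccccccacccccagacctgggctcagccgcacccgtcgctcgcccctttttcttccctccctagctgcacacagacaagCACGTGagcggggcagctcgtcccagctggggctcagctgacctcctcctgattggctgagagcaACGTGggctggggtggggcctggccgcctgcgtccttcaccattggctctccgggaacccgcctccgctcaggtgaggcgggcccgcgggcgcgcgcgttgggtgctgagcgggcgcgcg
Bnip3: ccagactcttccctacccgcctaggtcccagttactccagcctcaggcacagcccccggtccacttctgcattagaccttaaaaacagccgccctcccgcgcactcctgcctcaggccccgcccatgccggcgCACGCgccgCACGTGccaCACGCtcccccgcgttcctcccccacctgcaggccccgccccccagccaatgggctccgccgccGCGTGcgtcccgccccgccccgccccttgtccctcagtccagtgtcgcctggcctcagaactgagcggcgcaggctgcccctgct
Slc16a3: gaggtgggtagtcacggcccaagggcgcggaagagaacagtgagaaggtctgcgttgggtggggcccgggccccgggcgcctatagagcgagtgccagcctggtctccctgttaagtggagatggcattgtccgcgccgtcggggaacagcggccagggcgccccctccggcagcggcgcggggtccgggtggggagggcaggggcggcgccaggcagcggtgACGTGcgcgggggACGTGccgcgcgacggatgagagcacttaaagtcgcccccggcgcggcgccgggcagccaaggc

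The members were spread over cell types along 2 patterns. Pgk1, Aldoa, Pgam1, Eno1 and Gapdh followed the summed glycolytic enzymes, of which they are part. Transporters, some isoforms and hypoxia genes were high in different classes. The summed level of the 14 glycolytic enzymes, from hexokinase to pyruvate kinase, was highest in hematopoietic progenitors (5612 and 4469 CPM in GA and control), osteoclasts (4969 and 4994 CPM) and macrophages or monocytes (4898 and 4729.5 CPM), with progenitors first in GA and osteoclasts first in control. Mesenchymal cells other than osteoblasts held 3419 and 3416 CPM, neutrophils 3666 and 3003 CPM and B cells 1765 and 1770.1 CPM. Osteoblasts, as clustered among all cells, had the lowest sum of the 13 classes compared, with 940.1 and 768 CPM. These ranks are of shares of a class's UMIs, and levels per cell, which also depend on depth, were not compared. In osteoblasts Gapdh, which oxidises glyceraldehyde 3-phosphate, was 179.9 and 138 CPM, against 946 and 923 CPM in the other mesenchymal cells. In both libraries 25 of the 35 members had the same class of highest level. Here and below, classes are ranked among the 13 classes compared. Classes with fewer than 25 cells in a library, such as Schwann or glial cells, and unnamed clusters were left out.

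**Figure D1:**
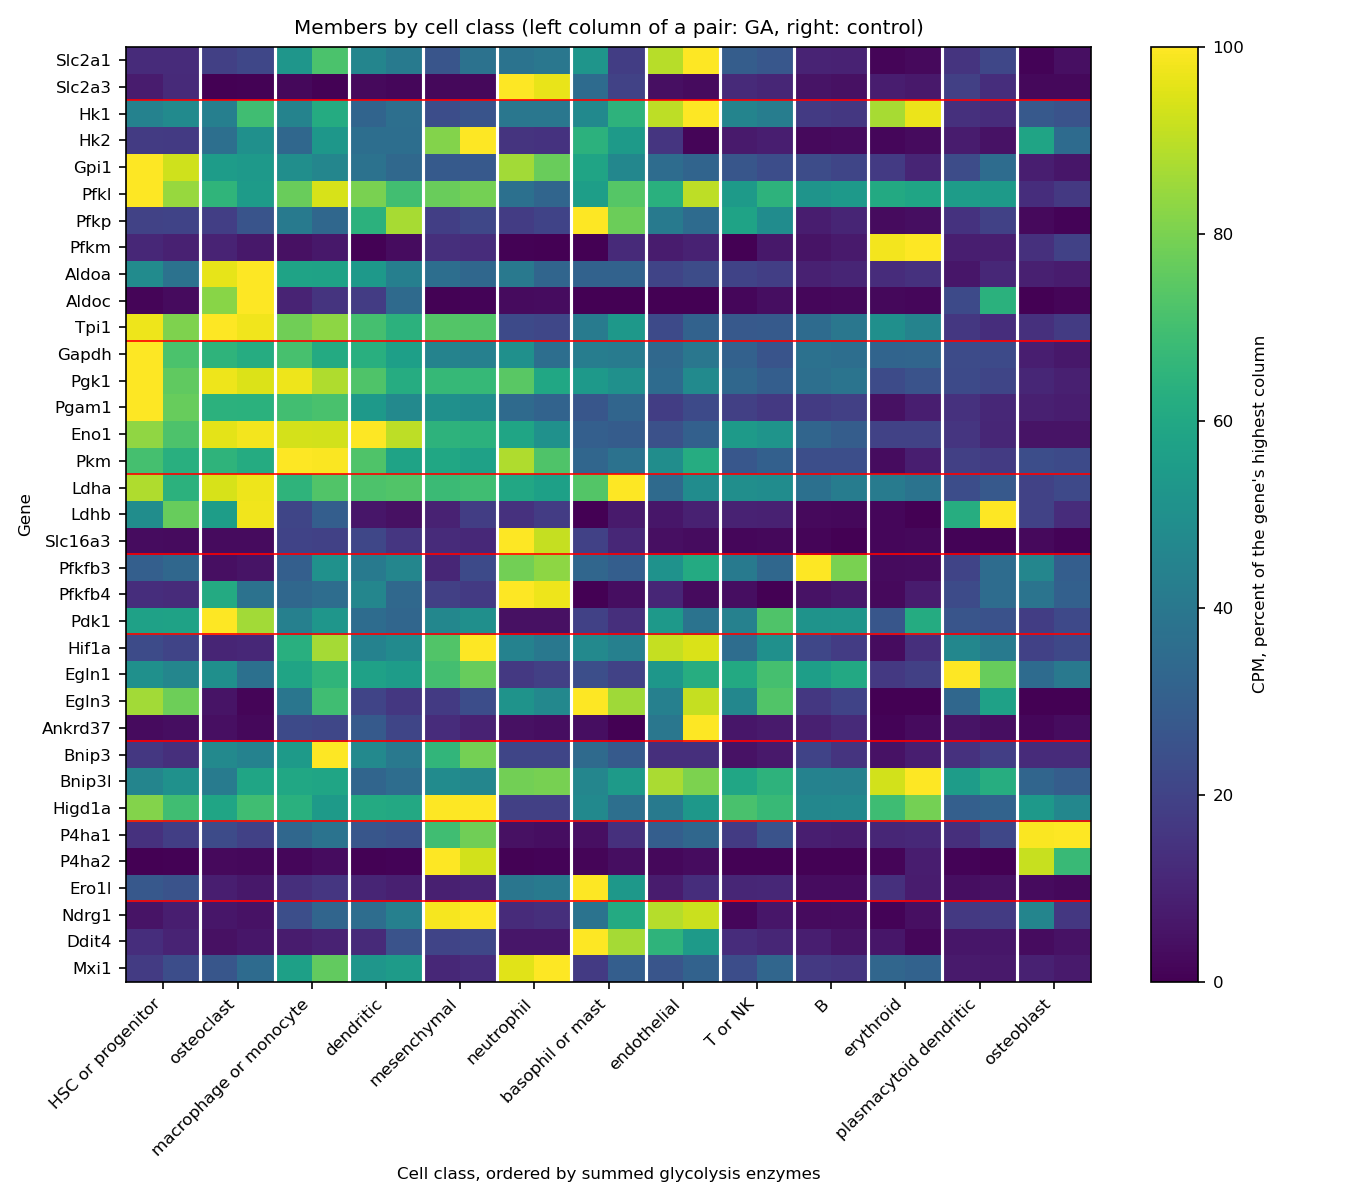
Level of each member (rows) in 13 cell classes (column pairs, GA left and control right), in CPM as a percent of the gene's highest column, with red lines between functional groups. Slc2a3 and Slc16a3 are bright in neutrophils, P4ha2 in the mesenchymal classes and Pfkm in erythroid cells in both libraries.

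The 2 glucose transporters were divided between cell types. Slc2a3, a high-affinity carrier, was 368 and 356 CPM in neutrophils of GA and control. Its level in the next class, basophils or mast cells, was 129 and 71.9 CPM, and in mesenchymal cells it was only 8.34 and 8.0 CPM. Slc2a1, the carrier of most other tissues, was highest in endothelial cells, at 143 and 161 CPM. Macrophages followed with 84.3 and 115 CPM, and neutrophils held 61.1 and 63.5 CPM. The lactate exporter Slc16a3 was also highest in neutrophils, with 693 and 633 CPM in neutrophils against 138 and 135 CPM in macrophages.

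Enzyme isoforms also differed by class. Hk2, the hexokinase that is regulated by growth signals, was highest in mesenchymal cells (318 and 391 CPM), whereas Hk1, the housekeeping form, was highest in endothelial (96.6 and 107 CPM) and erythroid cells (93.2 and 104 CPM), whose intervals overlapped. The phosphofructokinase subunit Pfkm, the muscle form, was 43.3 and 44.1 CPM in erythroid cells and at most 8.58 CPM in the other classes compared. The platelet form Pfkp was highest in basophils or mast cells of GA (292 CPM) and in dendritic cells of control (254 CPM), where the interval overlapped that of basophils or mast cells. Aldoc, an aldolase best known from brain, was 23.9 and 29.0 CPM in osteoclasts and 0.127 and 0.296 CPM in the mesenchymal lineage. The values of Pfkm in erythroid cells, Aldoc in both classes, Slc2a3 in basophils or mast cells and Ldhb in plasmacytoid dendritic cells rest on fewer than 200 UMIs. Gpi1 was highest in hematopoietic progenitors (657 and 609.7 CPM) and next in neutrophils (566 and 507 CPM). Ldhb is the lactate dehydrogenase subunit that favours lactate oxidation. Among the classes compared, it was highest in plasmacytoid dendritic cells (45.9 and 73.9 CPM) and osteoclasts (41.2 and 72.3 CPM), with overlapping intervals in both libraries. Schwann or glial cells, too few to be compared, held 176 and 357 CPM of Ldhb in GA and control. They also held 75.5 and 175 CPM of Aldoc and 25.2 and 41.1 CPM of Pfkm. Each of these values rests on fewer than 200 UMIs.

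Among the hypoxia genes, those that serve collagen stood out in the mesenchymal lineage. P4ha2, a subunit of the collagen prolyl hydroxylase, was 214 and 199 CPM there and 3.49 and 7.36 CPM in macrophages. P4ha1, another isoform of this subunit, was highest in osteoblasts (247 and 248 CPM). Ndrg1, a stress-response gene, was highest in mesenchymal (336 and 340.1 CPM) and endothelial cells (302 and 312 CPM), whose intervals overlapped. Higd1a, a mitochondrial protein induced by hypoxia, was also highest in mesenchymal cells, at 197 and 197 CPM. Ankrd37, a direct Hif1a target, was 27.8 and 70.0 CPM in endothelial cells, with fewer than 200 UMIs behind it. Bnip3l, which removes mitochondria from maturing red cells, was highest in erythroid cells at 196 and 209.6 CPM among the classes compared. The interval overlapped that of endothelial cells in GA. In Schwann or glial cells, which were not compared, Bnip3l was 277 and 270 CPM, on fewer than 200 UMIs. Pdk1 was highest in osteoclasts (39.1 and 33.7 CPM), and Ddit4, which restrains mTORC1, in basophils or mast cells (188 and 162 CPM), both with fewer than 200 UMIs. Mxi1, an antagonist of Myc, and Pfkfb4 were highest in neutrophils, at 316 and 331 CPM and 73.4 and 71.5 CPM. Ero1l, which oxidises protein thiols in the endoplasmic reticulum, was highest in basophils or mast cells (424 and 226 CPM) and next in neutrophils (167 and 175 CPM), with overlapping intervals in control. The class of highest Hif1a differed between libraries, with endothelial cells first in GA (319 CPM) and mesenchymal cells first in control (349 CPM). Endothelial cells of control held 329 CPM, with an interval of 304 to 356 CPM that included the mesenchymal level.

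Across the 26 profiles of 13 classes in 2 libraries, levels of Pgk1 followed the enzyme sum most closely (Pearson r = 0.99 on log2(CPM + 10)), then Aldoa (0.94), Pgam1 (0.94) and Eno1 (0.93), each of which is part of that sum. Gapdh had 0.93, Gpi1, the isomerase of the pathway's second step, 0.83, Tpi1 0.81 and Pkm 0.78. Other enzymes of the sum followed it less, namely Pfkl (0.67), Pfkp (0.60), Hk2 (0.43), Hk1 (0.29) and Aldoc (0.26). Pfkm had the lowest r of all members (-0.39). Ldha, which is not part of the sum, reached 0.92. By contrast Slc2a3 (-0.088), Pfkfb3 (-0.046) and Bnip3l (-0.0061) had values near 0, and P4ha2 had -0.29. Outside all gene lists used here, the 5 genes most like the sum were Aprt (0.91), which salvages adenine, Vps29 (0.89), a retromer subunit, Soat1 (0.85), which esterifies cholesterol, Pgd (0.85), an enzyme of the pentose phosphate pathway, and Arpc1b (0.84), a subunit of the actin nucleator Arp2/3. An abundant enzyme makes up much of the sum, which raises its own r, and r between single enzymes was not computed. The profiles share their 2 libraries, and both profiles of a class share its cell type, so r is a description only.

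Within neutrophils, the transporters at both ends of the pathway were higher in CPM in mature cells than in dividing precursors, and some enzymes between them were lower. Mature cells held fewer UMIs each, so a higher CPM need not mean more transcripts per cell. Levels per cell were not compared. In CPM, Slc2a1, Slc2a3, Slc16a3, Pfkfb3, Hif1a, Egln3, Bnip3, Ndrg1, Ddit4 and Mxi1 were higher in mature cells by over 1 log2 in both libraries, and Hk2, Tpi1, Ldha, Ldhb, Egln1 and Ero1l were lower. In dividing, immature and mature cells of GA, Slc16a3 was 123, 424 and 1305 CPM, and in control 129, 404 and 1188 CPM. The log2 ratio of mature over dividing cells was 3.41 (95% interval 3.33 to 3.50) in GA and 3.20 (95% interval 3.08 to 3.33) in control. Slc2a3 followed the same course, with 100.5, 304 and 644 CPM in GA and 97.9, 309 and 667 CPM in control. Hif1a was close in dividing and immature cells and higher in mature cells, with 62.0, 64.2 and 337 CPM in GA and 61.6, 61.5 and 290.1 CPM in control. Slc2a1 was likewise highest in mature cells, with 17.8, 27.1 and 131 CPM in GA and 21.7, 20.4 and 134 CPM in control. Egln3, a hydroxylase that Hif1a itself induces, was 3.11, 4.75 and 32.9 CPM in GA, and Bnip3, which marks mitochondria for removal, 4.52, 7.35 and 22.5 CPM.

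Opposite to these, Ldhb was 35.6, 4.50 and 1.20 CPM over the same steps of GA, and the isomerase Tpi1 136, 56.5 and 37.4 CPM. Ldha, which makes lactate, stayed high in immature cells and was lower only in mature cells, with 454, 504 and 175 CPM in GA and 413, 521 and 138 CPM in control. Ero1l was 269.9, 198 and 73.4 CPM in GA and 288, 214 and 62.4 CPM in control. Egln1, the main hydroxylase that acts on Hif1a, was 28.6, 11.3 and 12.9 CPM in GA and 31.7, 12.2 and 11.6 CPM in control, opposite to Egln3. Higd1a and Bnip3l differed little between mature and dividing cells, with log2 ratios of 0.39 and 0.35 in GA. Mature cells therefore had the highest level of the exporter and the lowest of the enzyme whose product it carries among the 3 stages. The summed glycolytic enzymes were 4188, 3859 and 3127 CPM in GA and 3332, 3309 and 2444 CPM in control.

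Of the 30 members with at least 200 UMIs in the dividing and mature cells, 10 were higher in mature cells by over 1 log2 in both libraries and 6 were lower. Among all 7049 genes with as many UMIs, 26% were higher and 31.9% lower in GA, and 26.5% and 30.7% in control, so differences of this size were common between these stages. The median depth was 28855 and 23675 UMIs in dividing cells against 5636 and 4136 UMIs in mature cells, and the part of depth in these ratios was not tested.

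**Figure D2:**
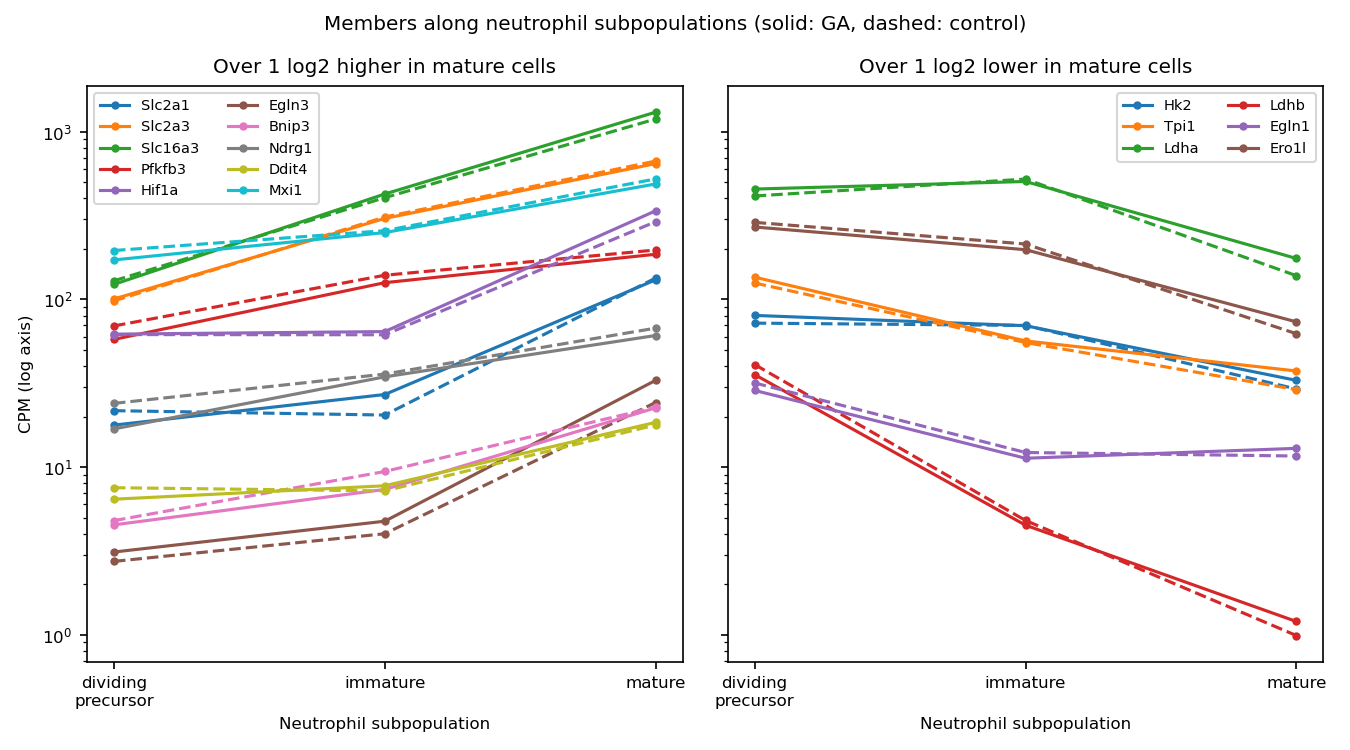
Levels in CPM (log axis) of the 10 members that were over 1 log2 higher and the 6 that were over 1 log2 lower in mature than in dividing neutrophils in both libraries, at 3 stages, with GA as solid and control as dashed lines. Slc16a3 climbs to 1305 and 1188 CPM while Ldha drops to 175 and 138 CPM, and the lines of the 2 libraries run close together.

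The comparison of GA with control asked whether the members differed between treated and untreated defects. Over all cells, Slc2a3 differed most, with 109 CPM in GA and 40.4 CPM in control and a log2 ratio of 1.43 (95% interval 1.39 to 1.47). Slc16a3 had 244 and 129.9 CPM and a ratio of 0.91 (95% interval 0.89 to 0.93), and Pfkfb4 31.7 and 20.6 CPM and 0.62 (95% interval 0.56 to 0.68). Within neutrophils, the class in which all 3 were highest, the ratios were 0.049, 0.13 and 0.036. The share of neutrophils also differed, at 52.7% of the kept GA cells and 27.6% of the kept control cells. In the other direction, Hk2, P4ha1, P4ha2 and Ndrg1 were lower over all cells (ratios -0.84, -0.71, -0.75 and -0.73). Within the mesenchymal lineage, where they were highest apart from P4ha1 in its osteoblasts, their ratios were -0.30, -0.14, 0.10 and -0.043, and the lineage made up 10.4% and 23.2% of the cells. Over all cells 5 members were higher and 7 lower by over 0.5 log2, against 11% and 21.9% of all 15318 genes tested.

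**Figure D3:**
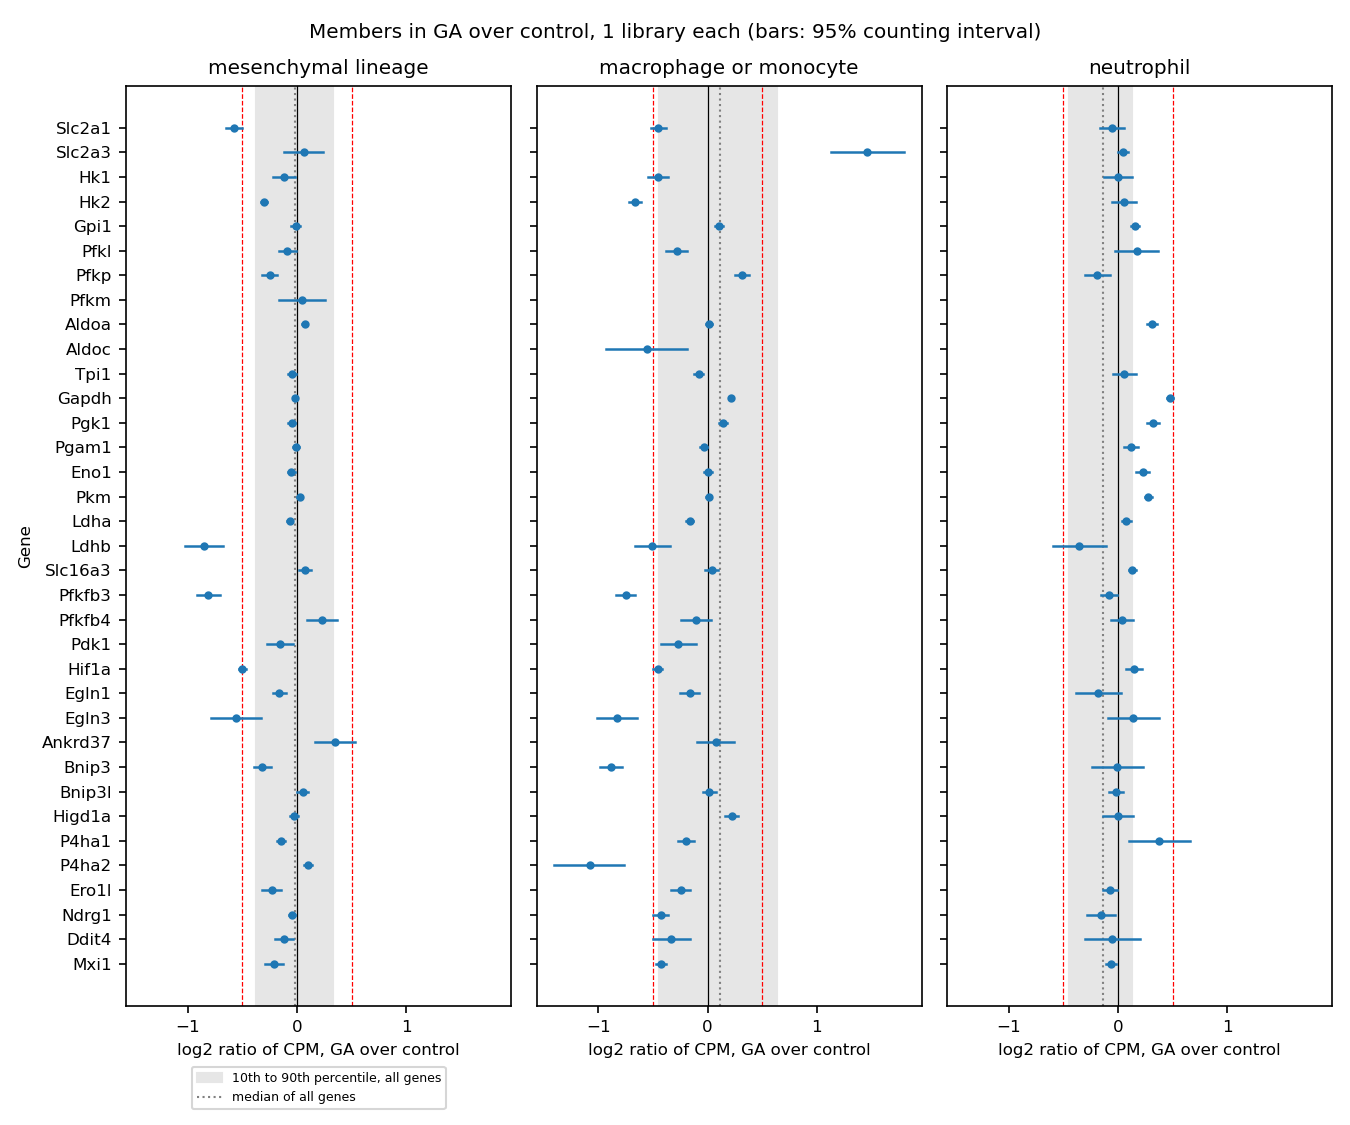
The log2 ratio of CPM in GA over control for each member in 3 classes, with 95% counting intervals as bars, red dashed lines at 0.5 log2 in either direction, grey bands for the 10th to 90th percentile of all genes and dotted lines for their median. Members with fewer than 200 UMIs have no point. Pfkfb3 and Hif1a lie to the left in the mesenchymal lineage and macrophages but near 0 in neutrophils, where Gapdh lies at 0.48.

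In the mesenchymal lineage as a whole, the core enzymes were close between conditions, and 5 members, Pfkfb3, Slc2a1, Hif1a, Ldhb and Egln3, were lower in GA by over 0.5 log2. Slc2a3 and Pfkfb4, which share the roles of Slc2a1 and Pfkfb3, were 8.34 and 8.0 CPM and 14.8 and 12.6 CPM, with ratios of 0.060 and 0.23. Gapdh was 896 CPM in GA and 906 CPM in control, with a log2 ratio of -0.016 (95% interval -0.032 to 0.0012). Pgk1, Pgam1, Eno1, Pkm and Ldha had ratios between -0.068 and 0.024, and the summed enzymes -0.044 (95% interval -0.053 to -0.035). Pfkfb3, whose product activates phosphofructokinase, was 20.8 CPM in GA and 36.6 CPM in control. Its log2 ratio was -0.81 (95% interval -0.92 to -0.71), so the 2 levels differed by more than counting error. Slc2a1 was 39.7 CPM in GA and 59.3 CPM in control, a ratio of -0.58 (95% interval -0.65 to -0.50). Hif1a was 242 CPM in GA and 343 CPM in control, a ratio of -0.50 (95% interval -0.53 to -0.47), at the edge of the limit of 0.5. Over the 12 alternative settings tried, the ratio of Pfkfb3 stayed beyond the limit in 12, that of Slc2a1 in 11 and that of Hif1a in 8, and all were below 0.

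Slc2a1 was lower in GA in each of the 9 mesenchymal clusters with enough cells and UMIs, Hif1a in 9 of 10 and Pfkfb3 in 8 of 10. These clusters come from the same 2 libraries and are not replicates. In Stem 1, the dividing stem-like population, Pfkfb3 was 13.4 and 35.3 CPM in GA and control, and in multilineage progenitors 22.4 and 66.4 CPM. In fibroblastic progenitors it was 11.0 and 29.2 CPM, and in Stem 2, the other stem-like population, 15.5 and 21.9 CPM. In osteoblasts it was 69.7 and 55.0 CPM, higher in GA in the largest osteoblast cluster and lower in the other 2. Hif1a was 248 and 396 CPM in Stem 1, 254 and 406 CPM in Stem 2 and 138 and 164 CPM in fibroblastic progenitors. The genes of a dissociation stress list summed to 5585 CPM in GA and 4675 CPM in control in this lineage, and the part of handling in these ratios was not tested.

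The other 2 members past 0.5 log2 had smaller ratios once the make-up of the lineage was held the same. Ldhb was 7.46 CPM in GA and 13.5 CPM in control (ratio -0.85), and it was highest in fibroblastic progenitors (42.3 and 34.0 CPM), which made up 6.79% of the lineage in GA and 22.1% in control. With every cluster given the same share in both libraries, its ratio was -0.049. The ratio of Egln3, at 4.39 and 6.46 CPM, went from -0.56 to -0.20 in the same way. Pfkfb3, Slc2a1 and Hif1a stayed past 0.5 log2, at -0.89, -0.54 and -0.51. Standardised over the clusters of all cells, Gapdh, Pgk1, Pgam1, Eno1, Pkm and Ldha had ratios between -0.23 and -0.073. The enzyme sum had ratios of -0.032 in Stem 1, -0.091 in Stem 2 and -0.0033 in multilineage progenitors. In fibroblastic progenitors it was 0.12 and in unnamed cells of the lineage -0.15, so the value of the whole lineage mixed populations that differed. In all, 5 of the 34 members with at least 200 UMIs were lower by over 0.5 log2 and 0 were higher, against 6.75% and 5.62% of all 12826 genes. The remaining member, Aldoc, had fewer UMIs. The median ratio was -0.061 for members and -0.019 for all genes.

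The enzyme sum of osteoblasts gave a reading that depended on their definition. In the 76 GA and 51 control cells of the osteoblast clusters found among all cells, the summed enzymes were 940.1 and 768 CPM, a ratio of 0.29 (95% interval 0.20 to 0.38). When the lineage was clustered alone, the osteoblasts (83 GA and 86 control cells) had 985 and 1596 CPM, a ratio of -0.70 (95% interval -0.76 to -0.63). The second set includes a cluster of 15 GA and 35 control cells in which Gapdh was 318 and 716 CPM. In the largest osteoblast cluster (57 and 46 cells) Gapdh was 169 and 139 CPM. No direction is therefore given for the enzyme sum of osteoblasts. Their rank as the lowest class in control also depended on the definition. The second set was there above erythroid cells (1529 CPM) and plasmacytoid dendritic cells (1322 CPM). Pfkfb3 was higher in GA in both sets, with ratios of 0.61 (95% interval 0.27 to 0.96) and 0.34 (95% interval 0.068 to 0.62). Both sets are drawn from the same lineage of the same libraries, so they are not independent. Within the second set it was higher in GA only in the largest cluster. In the first set 3 of 15 members were higher by over 0.5 log2 and 0 were lower, against 7.29% and 5.31% of genes. In the second set 2 of 20 were higher and 8 were lower, against 4.68% and 19.1% of genes.

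**Figure D4:**
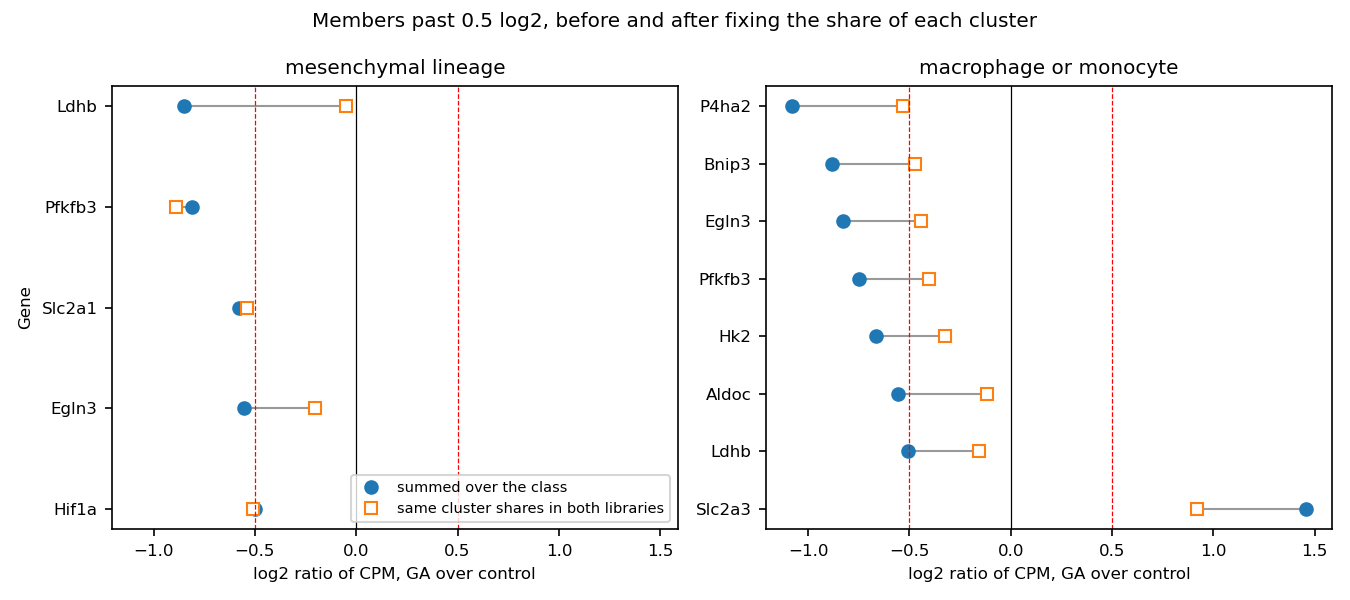
Members past 0.5 log2 in the mesenchymal lineage (left) and macrophages or monocytes (right), with the log2 ratio of CPM in GA over control summed over the class (circles) and with each cluster of the class given the same share in both libraries (squares). Pfkfb3, Slc2a1 and Hif1a stay in place on the left, while on the right all 7 members below 0 move toward it.

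In macrophages or monocytes as a whole, the enzyme sum was close between conditions, and Bnip3, Egln3, P4ha2, Pfkfb3, Hk2, Aldoc and Ldhb were lower in GA by over 0.5 log2. Gapdh was 1499.7 CPM in GA and 1294 CPM in control (log2 ratio 0.21, interval 0.20 to 0.23), and the summed enzymes had a ratio of 0.050 (95% interval 0.041 to 0.060). Bnip3 was 35.9 CPM in GA and 66.0 CPM in control, a log2 ratio of -0.88 (95% interval -0.98 to -0.78). Egln3 was 10.9 and 19.3 CPM (log2 ratio -0.82, interval -1.01 to -0.64), and Pfkfb3 48.5 and 81.5 CPM (log2 ratio -0.75, interval -0.83 to -0.66). Hk2 was 130.4 and 207 CPM (log2 ratio -0.66, interval -0.72 to -0.61). P4ha2, Aldoc and Ldhb, at no more than 21.9 CPM in either library, had ratios of -1.08, -0.56 and -0.51. Hif1a was 220.3 and 302 CPM and Slc2a1 84.3 and 115 CPM, both with a ratio of -0.45.

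The kinds of macrophage present also differed between the libraries. Arg1 macrophages, named for arginase, had the highest levels of Bnip3 (68.9 and 93.5 CPM), Hif1a (255 and 366 CPM) and the enzyme sum (6136 and 6141 CPM) of the class. Its ratio was -0.0013 (95% interval -0.015 to 0.012) in Arg1 macrophages, 0.34 (95% interval 0.32 to 0.37) in Ly6c2 monocytes, 0.19 (95% interval 0.15 to 0.22) in C1q macrophages, 0.39 (95% interval 0.30 to 0.48) in MHC class II macrophages, 0.62 (95% interval 0.41 to 0.83) in non-classical monocytes and -0.20 (95% interval -0.25 to -0.15) in dividing cells, so the value of the whole class mixed populations that differed. Arg1 macrophages made up 34.0% of the class in GA and 47.3% in control, whereas Ly6c2 monocytes, with 14.9 and 23.3 CPM of Bnip3, made up 41.6% and 20.4%. With the same share of every cluster in both libraries, the ratio of Bnip3 was -0.47, that of Egln3 -0.44, that of Pfkfb3 -0.40 and that of Hk2 -0.32. Over all 12 alternative settings, the ratios of Bnip3, Egln3 and P4ha2 stayed beyond 0.5 log2 in 11 and that of Pfkfb3 in 10. Those of Hk2, Ldhb and Aldoc did so in 9, 8 and 6, and all were below 0. Within Arg1 macrophages, Hif1a had a ratio of -0.52 (95% interval -0.58 to -0.46) and Pfkfb3 one of -0.59 (95% interval -0.74 to -0.45). C1q macrophages, named for complement genes, had -0.46 (95% interval -0.58 to -0.34) and -0.67 (95% interval -0.85 to -0.50) for the same genes. In Ly6c2 monocytes, the most numerous population in GA, Hif1a was 225 and 243 CPM (log2 ratio -0.11, interval -0.20 to -0.020) and Pfkfb3 37.2 and 48.1 CPM (log2 ratio -0.37, interval -0.58 to -0.15), while Gapdh was 1626 and 1104 CPM (log2 ratio 0.56, interval 0.52 to 0.60).

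Of the 34 members with enough UMIs in macrophages or monocytes (all but Pfkm), 7 were lower by over 0.5 log2 and 1 was higher, against 8.45% and 14.6% of all 10503 genes. With the same cluster shares 1 member was lower. The median of all genes in this class was shifted by 0.12, and relative to it 12 members were lower and 1 was higher, against 11.9% and 10.5% of genes. The median of the members was -0.18.

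The member that was higher is Slc2a3, with 7.43 CPM in GA and 2.70 CPM in control and a ratio of 1.46 (95% interval 1.13 to 1.80). Neutrophils held 368 and 356 CPM of it. All 7 genes of a neutrophil marker list were also higher in the GA macrophages, and none was at 0 in either library. They summed to 3032 CPM in GA and 315 CPM in control, most of it S100a8 (1538 and 143 CPM) and S100a9 (1094 and 112 CPM). How far macrophages or monocytes express the listed genes themselves was not tested. The sums are as much as if 0.883% and 0.0998% of the UMIs were from neutrophils. With those shares of the neutrophil profile subtracted, the ratio of Slc2a3 was 0.84, and with cells thinned to 2000 UMIs each it was 0.33. With 5% background subtracted it was 1.55, and it stayed beyond 0.5 log2 in 11 of the 12 alternative settings. In the mesenchymal lineage the list summed to 1871 and 221 CPM, and the ratios of Pfkfb3, Slc2a1 and Hif1a after the same subtraction were -0.85, -0.58 and -0.50.

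In neutrophils no member passed 0.5 log2, and several enzymes of the pathway were higher in GA by more than counting error. Gapdh was 1061 CPM in GA and 763 CPM in control, a log2 ratio of 0.48 (95% interval 0.45 to 0.51), and it was higher in GA in all 15 neutrophil clusters with enough cells. Pgk1, which makes the first ATP of the pathway, was 273 and 219 CPM (log2 ratio 0.32, interval 0.26 to 0.38), Aldoa 436 and 351 CPM (log2 ratio 0.31, interval 0.27 to 0.35) and Pkm 672 and 554 CPM (log2 ratio 0.28, interval 0.25 to 0.31). The summed enzymes had a ratio of 0.29 (95% interval 0.27 to 0.30) over the class, 0.33 (95% interval 0.30 to 0.36) in dividing precursors, 0.22 (95% interval 0.20 to 0.25) in immature and 0.36 (95% interval 0.32 to 0.39) in mature cells. Bnip3 was 13.7 and 13.7 CPM and Slc2a1 61.1 and 63.5 CPM, with intervals that included 0. Pfkfb3, which was lower in GA in both other classes, was 127 and 134 CPM (log2 ratio -0.080, interval -0.15 to -0.0067). Hif1a was slightly higher in GA, at 155 and 139 CPM (log2 ratio 0.15, interval 0.078 to 0.22).

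In mature neutrophils, 3 of 28 members were higher by over 0.5 log2, against 2.49% of genes. They were Gapdh (842 and 582 CPM, log2 ratio 0.53, interval 0.47 to 0.60), the phosphofructokinase subunit Pfkl (20.4 and 13.1 CPM, log2 ratio 0.64, interval 0.20 to 1.10) and P4ha1 (20.6 and 9.41 CPM, log2 ratio 1.13, interval 0.63 to 1.67). In neutrophils as a whole 0 of the 30 members with enough UMIs were higher by over 0.5 log2 and 0 were lower, against 1.08% and 7.7% of all 8251 genes. Relative to the median of all genes, which was -0.14, 2 members were higher and 0 were lower, against 1.95% and 3.99% of genes. Of the same members 18 had a ratio above 0, against 25.4% of all genes. The GA neutrophils were deeper, with a median of 7049 UMIs against 5091, and with every cell thinned to 2000 UMIs the median of the members was 0.12 in place of 0.052.

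Hematopoietic progenitors, 374 GA and 176 control cells, also had higher enzyme levels in GA. Gapdh was 2117 CPM in GA and 1514 CPM in control (log2 ratio 0.48, interval 0.45 to 0.52) and Ldha 548 and 399 CPM (log2 ratio 0.46, interval 0.39 to 0.52), and the summed enzymes had a ratio of 0.33 (95% interval 0.31 to 0.35). Ldhb went the other way, at 36.2 and 56.8 CPM (log2 ratio -0.65, interval -0.84 to -0.46). Of 31 members 3 (Ldhb, Slc2a3 and Ndrg1) were lower by over 0.5 log2 and 0 were higher, against 5.91% and 2.59% of genes. In B cells the sum was 1765 and 1770.1 CPM, a ratio of -0.0043 (95% interval -0.042 to 0.034), and in osteoclasts 4969 and 4994 CPM, a ratio of -0.0072 (95% interval -0.049 to 0.035). Endothelial cells, 45 GA and 46 control cells, had 2249 and 2560.0 CPM, a ratio of -0.19 (95% interval -0.26 to -0.11).

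Other genes of the same pathways were counted from 3 lists, of which 63 of 64 genes were found. Of the other hypoxia response genes, 4 of 15 were lower by over 0.5 log2 in GA macrophages or monocytes and 0 were higher, 4 and 0 of 11 in neutrophils, and 2 and 1 of 18 in the mesenchymal lineage. In macrophages or monocytes, neutrophils and the mesenchymal lineage, 8.45%, 7.7% and 6.75% of all genes were lower and 14.6%, 1.08% and 5.62% higher by as much. The median ratios of the list were -0.30, -0.31 and -0.083, beside 0.12, -0.14 and -0.019 for all genes. All ratios in this paragraph are of whole classes, whose make-up differed between the libraries. The part of make-up in them was not tested. Vegfa, the main growth factor of blood vessels, was 109 and 238 CPM (log2 ratio -1.13) in GA and control macrophages, and Angptl4, a regulator of lipid uptake, 3.03 and 7.09 CPM (log2 ratio -1.23). In the mesenchymal lineage Angptl4 was 110 and 169 CPM. Lox, which cross-links collagen, was 2.93 and 6.57 CPM (log2 ratio -1.17) in neutrophils, in which it is scarce. It was 716 and 683 CPM in the mesenchymal lineage, and the part of background in the neutrophil ratio was not tested. Of the other glycolysis genes, 2, 1 and 2 were lower and 1, 1 and 2 higher in macrophages, neutrophils and the mesenchymal lineage, of 19, 15 and 21, against 8.45%, 7.7% and 6.75% of all genes lower and 14.6%, 1.08% and 5.62% higher. Eno2, the neuronal enolase, was 2.51 and 5.90 CPM (log2 ratio -1.23) in macrophages, and Slc16a1, a lactate carrier, 2.55 and 6.57 CPM (log2 ratio -1.36) in neutrophils. In the mesenchymal lineage they were 6.59 and 9.71 CPM and 39.5 and 42.7 CPM. The part of background in the ratios of Angptl4, Eno2 and Slc16a1 was not tested. Of the oxygen sensing machinery, 1 of 9 was lower in macrophages, and 0 of 8 and 0 of 10 in neutrophils and the mesenchymal lineage, with none higher, against 8.45%, 7.7% and 6.75% of all genes lower.

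Some members have close copies in the genome. Aldoa is listed under 2 identifiers, and the one used here (ENSMUSG00000030695) held 72160 and 76280 UMIs in GA and control against 12 and 16 for the other. Eno1 has a near-identical copy, Eno1b, with 416 and 456 UMIs, so reads could have been divided between the 2. Positions on GRCm38 of the genes named most often are chr2:11471433-11554077 for Pfkfb3, chr12:73901375-73947530 for Hif1a, chr4:119108711-119137983 for Slc2a1, chr6:122727809-122801640 for Slc2a3 and chr11:120948480-120960868 for Slc16a3. All 5 are protein-coding genes.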

How the data were processed

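The authors deposited 1 matrix of counts per library, that is, UMIs per gene and barcode, without normalization. The file headers name Cell Ranger 7.0.1 and the submitters' processing notes name Cell Ranger and the build mm10. The sources name the 10x 3′ chemistry in 2 ways, so its version is not given here.

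Barcodes were kept with 500 to 140000 UMIs, 200 to 9500 genes and up to 15% mitochondrial UMIs, the study's limits. Scrublet marked 0 GA and 32 control barcodes (0.367%), which was too few, so the top scores were removed instead at 0.8% per 1000 barcodes (660 and 538 cells). Cells were clustered with scanpy 1.11.5 on 2000 variable genes that left out all members, with Pearson residuals, 50 principal components, Harmony over the libraries, 15 neighbours and Leiden resolution 1. Clusters were named from marker lists. The mesenchymal lineage, neutrophils and macrophages or monocytes were each clustered again alone. UMIs were summed per class and library and given as CPM. Classes needed 25 cells per library and genes 200 UMIs over both. The script for ratios was tested on simulated data.

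The groups came from the labels. Each condition had 1 library, so no test was made. The members and lists were chosen with earlier results of these data known, and the naming thresholds were set after the data were seen. All members could be named. Other pathway genes were counted by list and named past 1 log2, and the 5 genes most like the enzyme sum were named by r. Alternatives covered depth, doublets, mitochondrial limit, Harmony, resolution, background, cell weights, cluster make-up, scaling, minimum UMIs and fold.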

Additional observations from a re-analysis of the deposited data

Results flagged for a closer look

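Both Hif1a and P4ha2 had ratios of opposite sign in 2 classes, each with an interval that left out 0. Hif1a had a log2 ratio of -0.50 in the mesenchymal lineage (242 and 343 CPM in GA and control) and of 0.15 in neutrophils (155 and 139 CPM). P4ha2, the collagen prolyl hydroxylase subunit, had 0.10 in the mesenchymal lineage (214 and 199 CPM) and -1.08 in macrophages or monocytes (3.49 and 7.36 CPM), where it was scarce. Over the alternative settings, the ratio of P4ha2 in macrophages or monocytes went from -2.86 (5% background subtracted) to -0.42 (cells thinned to 2000 UMIs). In the mesenchymal lineage it went from -0.12 (standardised over the clusters of all cells) to 0.21 (cells thinned to 2000 UMIs). Its sign in that lineage, and so the opposition between the classes, therefore depended on the setting. The part of background from mesenchymal cells in this ratio was not tested. The difference between the classes was not tested for either gene, since there was 1 library per condition.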

How the results depend on the processing

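No paired analysis was possible because each condition had 1 library, and no replicate could be left out. The alternatives were run in the mesenchymal lineage, macrophages or monocytes and neutrophils, and no member called there had the opposite sign under one, whereas counts over all cells, in progenitors and in mature neutrophils had none. In the mesenchymal lineage the median ratio of -0.061 became -0.025 with each cell weighted equally, -0.13 standardised over the clusters of all cells and -0.12 over those of the lineage alone. The 5 members lower became 3 with equal weights, 2 with cells thinned to 2000 UMIs, 3 and 3 under the same standardisations and 0 past 1 log2. In macrophages or monocytes the median of -0.18 became -0.29 centred on all genes and -0.048 over the clusters of the class alone. The 7 members lower became 12 centred, 4 without Harmony, 4 and 1 standardised and 1 past 1 log2, and the 1 higher became 0 when thinned. In neutrophils the median of 0.052 became 0.19 centred, 0.12 thinned and 0.096 with 5% background subtracted. The 0 members higher became 2, 1 and 1 in the same order and 1 over the clusters of the class alone, and the 0 lower became 1 with a minimum of 50 UMIs. The cause of these shifts was not tested. Thinning left out 2 mesenchymal cells, 1 macrophage or monocyte, and 28 GA and 26 control neutrophils. Standardisation over the clusters of a class alone and subtraction of the neutrophil profile were chosen after seeing the data. Depth limited members such as Pfkm, Aldoc and Ankrd37, which had too few UMIs in several classes.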
